A study of Mus musculus with 12 samples.

Results

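A set of 9 genes of peptide signalling was followed across the reproductive tracts of wild-type (WT) and Hox mutant mice. They are 6 neuropeptide precursors (Cartpt, Grp, Nmu, Tac2, Npy and Vip), 2 granins (Chga and Chgb) and 1 neuropeptide receptor (Ntsr1). The 9 were picked by symbol after their values in these same libraries had been seen, so every difference given for them is a description and none is a test. They are 9 of 31618 genes listed in the female and 31669 genes listed in the male libraries. With 20 normalised reads in the highest library as the minimum for a measured gene, 4 of the 9 were measured in the female set (Tac2, Grp, Chga and Npy) and 6 in the male set (Nmu, Grp, Ntsr1, Cartpt, Chga and Npy). Chga and Npy reached it among the female libraries in the oviduct alone, with at most 14.3 and 7.32 normalised reads in a uterus, and Npy among the male libraries in the epididymis alone, with at most 9.86 in a vas deferens.

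The 12 libraries came from adult mice of a CD1/129 background aged 3 to 7 months, with females taken in diestrus. The 6 female libraries covered the uterus in 5 genotypes together with WT oviduct, and the male ones covered the vas deferens in those genotypes together with WT caudal epididymis. The genotypes were WT, Hoxa9,10,11-/- (single Hoxa-null), Hoxd9,10,11-/- (single Hoxd-null), Hoxa9,10,11-/-d9,10,11+/- (Hoxa-null compound) and Hoxa9,10,11+/-d9,10,11-/- (Hoxd-null compound). Where both are meant, the single and the compound mutant are called the 2 Hoxa-null or the 2 Hoxd-null libraries. Each library held RNA pooled from 3 animals and each genotype has 1 library in a tissue, which leaves no replicate check, no SD and no test between genotypes.

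Neuropeptides are made as long precursors, packed into dense-core vesicles, cut at pairs of basic residues by prohormone convertases and often amidated at their end before release. Granins are acidic proteins of the same vesicles, where they help to condense and sort the cargo. In the genital tract such peptides are known mainly from the nerve fibres that run through its smooth muscle and around its vessels, where they act on contraction, secretion and blood flow through receptors coupled to G proteins.

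For 3 members the coding stretch just before the amidation and cleavage signal shows what kind of precursor is being counted. Each line gives 45 bases of the longest reading frame of the gene's GENCODE M21 transcripts (GRCm38), with the glycine codon and the 2 basic codons that follow it in capitals. The stretch covers bases 238 to 282 of the coding sequence of Tac2, 463 to 507 of Nmu and 157 to 201 of Npy.
Tac2: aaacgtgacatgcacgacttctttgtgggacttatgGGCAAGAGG
Nmu: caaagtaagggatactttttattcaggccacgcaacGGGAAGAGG
Npy: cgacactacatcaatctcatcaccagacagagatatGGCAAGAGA

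The 250 bases before the start of transcription are shown for Tac2, Nmu, Ntsr1, Cartpt and Chga, 5 members whose levels separated genotypes. They are taken from RefSeq's promoter table (build GRCm38.p6) and run 5′ to 3′ on the gene's strand. Capitals mark matches, on either strand, to the cAMP response element TGACGTCA, the posterior Hox core TTTAT, the TATA box TATAAA and the GC box GGGCGG. The core TTTAT is contained in the TATA box read on the other strand. The Cartpt window lies at chr13:99900684-99900933 on the minus strand, Nmu at chr5:76363778-76364027 on the minus strand, Tac2 at chr10:127724228-127724477 on the plus strand, Chga at chr12:102554691-102554940 on the plus strand and Ntsr1 at chr2:180499726-180499975 on the plus strand.
Tac2: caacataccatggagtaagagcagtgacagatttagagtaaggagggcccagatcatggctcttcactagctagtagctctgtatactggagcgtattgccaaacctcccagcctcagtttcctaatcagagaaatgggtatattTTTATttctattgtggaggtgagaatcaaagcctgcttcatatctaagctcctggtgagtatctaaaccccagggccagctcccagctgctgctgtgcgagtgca
Nmu: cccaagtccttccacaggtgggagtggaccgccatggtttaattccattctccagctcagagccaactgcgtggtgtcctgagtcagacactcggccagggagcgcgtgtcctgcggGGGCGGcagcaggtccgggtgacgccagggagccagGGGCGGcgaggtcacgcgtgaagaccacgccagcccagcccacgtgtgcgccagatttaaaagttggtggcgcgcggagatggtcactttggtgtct
Ntsr1: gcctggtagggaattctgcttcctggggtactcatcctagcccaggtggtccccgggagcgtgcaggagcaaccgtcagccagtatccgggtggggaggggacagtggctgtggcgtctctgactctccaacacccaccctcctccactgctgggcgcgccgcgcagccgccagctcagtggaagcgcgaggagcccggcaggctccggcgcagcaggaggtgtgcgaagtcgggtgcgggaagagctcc
Cartpt: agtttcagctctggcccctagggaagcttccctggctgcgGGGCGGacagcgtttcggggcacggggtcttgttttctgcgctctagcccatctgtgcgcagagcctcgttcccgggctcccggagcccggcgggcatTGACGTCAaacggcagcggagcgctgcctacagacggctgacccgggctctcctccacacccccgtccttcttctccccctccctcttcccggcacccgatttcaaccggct
Chga: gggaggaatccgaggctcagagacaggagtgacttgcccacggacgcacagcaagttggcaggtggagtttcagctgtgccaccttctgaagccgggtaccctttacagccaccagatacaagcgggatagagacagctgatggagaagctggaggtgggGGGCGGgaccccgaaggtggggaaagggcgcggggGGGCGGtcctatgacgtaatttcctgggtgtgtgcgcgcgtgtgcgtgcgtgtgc

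Cartpt holds 1 cAMP response element whose first base is 112 bases before the start. The same letters occur in 1.55% of 32851 mouse promoters of this length. Tac2 holds 1 TTTAT, 105 bases before the start, which 37.3% of promoters hold. Nmu and Chga hold 2 GC boxes each and Cartpt holds 1, against 32.7% of promoters with at least 1, and none of these letters stands in the Ntsr1 window. Among members whose windows are not shown, Chgb also holds 1 cAMP response element, 72 bases before the start, and 2 GC boxes. Npy holds 1 TTTAT and 1 GC box, and Vip holds 3 TTTAT and 3 TATA boxes. A match describes letters and does not show binding.

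The authors' values are log2 values whose median for each gene is 0 over the 6 libraries of a sex, so levels can be compared within the female set and within the male set only. Their spacing allows the number of reads behind a low value to be read back, and it shows a lower limit of 1 normalised read, called the floor here, at which a library with no read or about 1 read is listed. Depth differed by at most 1.34-fold among the female and 1.92-fold among the male libraries. WT and single Hoxa-null uterus shared run 134, lane 1 with the WT vas deferens. The 3 other mutant uteri shared lane 2 of that run with the single Hoxa-null, single Hoxd-null and Hoxa-null compound vasa, and no mutant vas deferens shared the lane of WT. The Hoxd-null compound vas deferens, the oviduct and the epididymis were in run 136. The targeted genes followed the labels in part. The log2 difference of Hoxa11 from WT was -2.74 and -3.11 in the 2 Hoxa-null uteri and -2.30 and -3.21 in the 2 Hoxa-null vasa, whereas Hoxa9 stayed within 1 log2 unit of WT in these 4 libraries. Hoxd11 was at -0.60 and -1.58 in the single Hoxd-null and Hoxd-null compound uterus. It was also at -0.74 and -1.35 in the single Hoxa-null and Hoxa-null compound uterus, and Hoxd10 was at 0.57 in the single Hoxd-null uterus. Among the vasa Hoxd11 was at -2.47 and -1.18 in the 2 Hoxd-null libraries and at -0.89 and -1.46 in the 2 Hoxa-null libraries.

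In the uterus, Tac2 was the member with most reads and was highest in WT. Tac2 encodes neurokinin B, a tachykinin that acts through the receptor Tacr3. It had 333.44 reads in the WT uterus, 52.4 in the single Hoxa-null, 8.98 in the single Hoxd-null, 37.98 in the Hoxa-null compound and 8.84 in the Hoxd-null compound uterus, and 9 in the WT oviduct. WT stood above every mutant, and both Hoxd-null uteri had about as many reads as the oviduct. The log2 difference from WT was -2.88 (95% counting interval -3.34 to -2.47) in the single Hoxa-null and -3.27 (-3.79 to -2.78) in the Hoxa-null compound uterus. It was -5.09 (-6.22 to -4.14) in the single Hoxd-null and -5.50 (-6.61 to -4.53) in the Hoxd-null compound uterus, which is 34.0-fold and 45.2-fold lower. These intervals are exact Clopper-Pearson intervals on 2 read numbers, cover counting error only and say nothing about the spread between animals. The WT uterus lay 2.88 log2 units above the highest mutant, and the 2 Hoxd-null uteri were separated from the lowest of the other 3 by a gap of -1.82, so the gap between WT and the mutants was the wider of the 2. In bulk tissue, fewer cells of a type and less RNA per cell cannot be told apart.

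**Figure D1:**
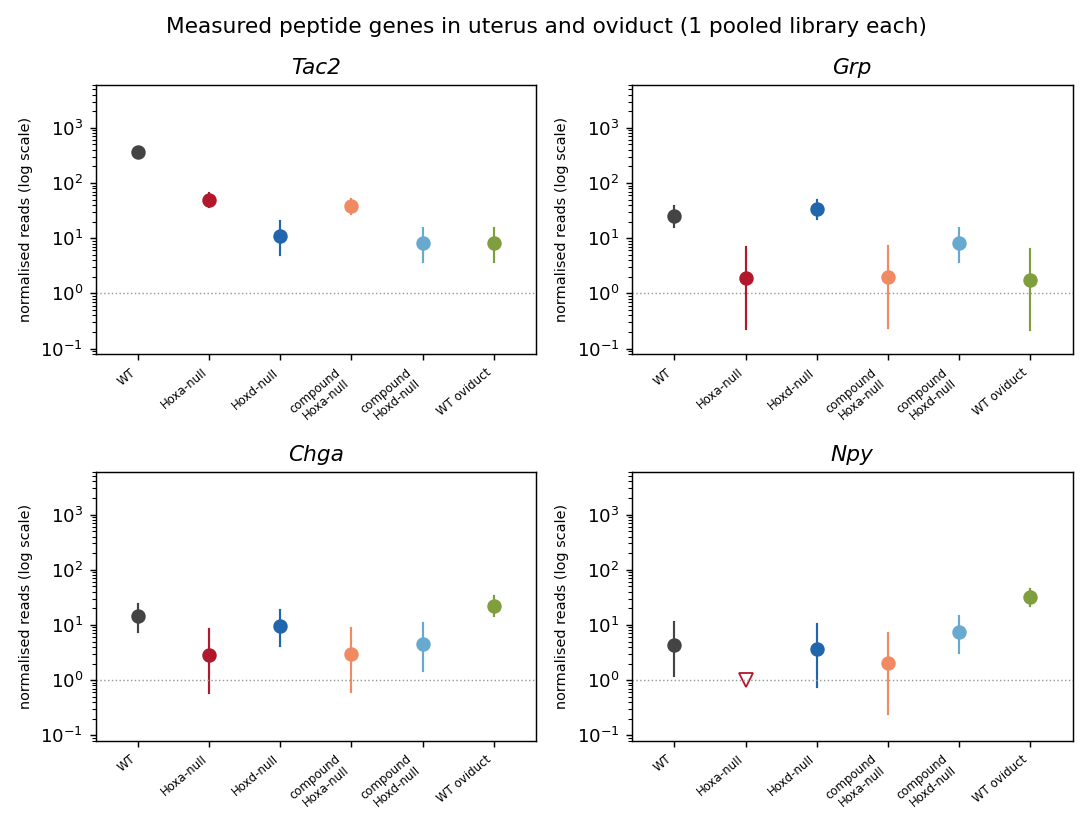
Level of the 4 measured members in the uterus of 5 genotypes and in the WT oviduct, in normalised reads on a log axis, with 1 pooled library per point, vertical lines for the 95% Poisson interval of the read number and open triangles for libraries at the floor of 1 normalised read (dotted line). Tac2 is highest in WT at 366 normalised reads, and Grp has 2 reads in each of the 2 Hoxa-null uteri against 23 in WT.

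Grp was low wherever both copies of the Hoxa genes were mutant. It encodes gastrin-releasing peptide, a bombesin-like peptide that acts through Grpr and is known in the uterus and in sensory nerves. Grp had 23 reads in the WT uterus, 2 in the single Hoxa-null, 28 in the single Hoxd-null, 2 in the Hoxa-null compound and 8.78 in the Hoxd-null compound uterus, and 2 in the oviduct. The 2 Hoxa-null uteri and the oviduct shared the lowest read number, and the single Hoxd-null uterus had the highest. The log2 difference from WT was -3.74 (-6.87 to -1.72) in the single Hoxa-null, -3.66 (-6.78 to -1.64) in the Hoxa-null compound, 0.41 (-0.44 to 1.27) in the single Hoxd-null and -1.65 (-2.91 to -0.45) in the Hoxd-null compound uterus. The 2 Hoxa-null uteri lay 2.01 log2 units below the lowest of the 3 uteri with a WT copy of the Hoxa genes (a gap of -2.01).

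Chga and Npy rested on few reads in the uterus. Chga encodes chromogranin A, the best known granin. It had 13 reads in WT, 3 in the single Hoxa-null, 8 in the single Hoxd-null, 3 in the Hoxa-null compound and 5 in the Hoxd-null compound uterus, and 25 in the oviduct. All 4 mutants lay below WT, and the counting interval of the difference reached 0 in the single Hoxd-null uterus alone (-2.05 to 0.81 around -0.57). Npy encodes neuropeptide Y, a peptide of sympathetic nerves that acts through receptors such as Npy1r and Npy2r. Its reads were 4 in WT, 3 in the single Hoxd-null, 2 in the Hoxa-null compound and 8 in the Hoxd-null compound uterus, with the single Hoxa-null uterus at the floor, and 35.6 in the oviduct. With 4 reads in WT, the floor of the single Hoxa-null uterus could not be told from WT at this depth, and the differences of the other 3 mutant uteri from WT had counting intervals that included 0.

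The remaining 5 members reached the minimum in no female library. Chgb had 8, 5, 8, 4 and 3 reads in the WT, single Hoxa-null, single Hoxd-null, Hoxa-null compound and Hoxd-null compound uterus and 4.84 in the oviduct, numbers much like those of Npy in the uteri. Nmu had at most 2 reads, in WT. Cartpt was above the floor in the Hoxa-null compound uterus, with 1 read, and in the oviduct, with 14 reads. Ntsr1 and Vip had the same value in all 6 female libraries.

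Read against all 16655 measured female genes, the 4 measured members were 4 of 4 at least 2-fold lower than WT in the single Hoxa-null uterus (7.26% of all measured genes were lower by that much) and 4 of 4 in the Hoxa-null compound uterus (6.81%). These counts include Chga and Npy, which reached the minimum through the oviduct. With the minimum required in a uterus, a setting chosen after seeing the data, Tac2 and Grp remained, and the differences from WT over all 4 mutants went from 12 to 7. In the single Hoxd-null uterus 1 of 4, Tac2, was lower (5.78%), and in the Hoxd-null compound uterus 3 of 4, Tac2, Grp and Chga, were lower (6.3%). None was 2-fold higher in any mutant uterus, where 5.98%, 6.18%, 8.55% and 7.96% of measured genes were, in the order single Hoxa-null, single Hoxd-null, Hoxa-null compound and Hoxd-null compound. The median difference of the 4 was -2.61, -0.43, -2.76 and -1.64 in that order, beside medians of all measured genes within 0.01 of 0. Grp was the 1 member at least 2-fold lower in both Hoxa-null uteri than in all 3 others (1.1% of measured genes), Tac2 the 1 member lower in both Hoxd-null uteri (0.336%), and Tac2 the 1 member higher in WT than in all 4 mutants (1.22%). Grp reached the minimum only in uteri with a WT copy of the Hoxa genes, and Tac2 only in uteri with a WT copy of the Hoxd genes. These contrasts chose the members, so the shares are given as background alone.

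In the vas deferens, Nmu, Grp and Ntsr1 were low in both Hoxa-null libraries. Nmu encodes neuromedin U, a peptide named for its contraction of uterine smooth muscle. It had 199.16 reads in the WT vas deferens, 3 in the single Hoxa-null, 43 in the single Hoxd-null, 2 in the Hoxa-null compound and 20 in the Hoxd-null compound vas deferens, and 1 in the caudal epididymis. WT was the highest of the 6, the 2 Hoxd-null vasa were in between, and the 2 Hoxa-null vasa lay near the epididymis. The log2 difference from WT was -5.68 (-7.95 to -4.10), -1.74 (-2.25 to -1.25), -6.32 (-9.36 to -4.44) and -2.44 (-3.18 to -1.77) in the single Hoxa-null, single Hoxd-null, Hoxa-null compound and Hoxd-null compound vas deferens. The 2 Hoxa-null vasa were separated from the lowest of the other 3 by a gap of -3.23.

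Grp was lowest among the vasa in the 2 Hoxa-null libraries, as among the uteri. It had 113.62 reads in WT, 8 in the single Hoxa-null, 62 in the single Hoxd-null, 7 in the Hoxa-null compound and 17 in the Hoxd-null compound vas deferens, and 33 in the epididymis. The 2 Hoxa-null vasa were lowest, and the Hoxd-null compound, which carries 1 mutant copy of the Hoxa genes, lay between them and the single Hoxd-null. The log2 difference from WT was -3.45 (-4.69 to -2.42) and -3.70 (-5.04 to -2.61) in the 2 Hoxa-null vasa, -1.87 (-2.70 to -1.13) in the Hoxd-null compound and -0.40 (-0.87 to 0.05) in the single Hoxd-null. The Hoxd-null compound vas deferens was 2.77-fold below the single Hoxd-null vas deferens (log2 difference -1.47, -2.33 to -0.67), in a comparison of libraries from different runs. In the female set, the Hoxd-null compound uterus was 4.17-fold below the single Hoxd-null uterus (-2.06, -3.29 to -0.90).

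Ntsr1 encodes the high-affinity receptor of neurotensin. It had 29 reads in the WT, 2 in the single Hoxa-null, 29 in the single Hoxd-null, 2 in the Hoxa-null compound and 18 in the Hoxd-null compound vas deferens, and 1 in the epididymis. The 3 vasa with a WT copy of the Hoxa genes held 18 to 29 reads, and the other 2 lay far below them. Against WT, the counting interval included 0 in the single Hoxd-null (0.47, -0.32 to 1.27) and in the Hoxd-null compound (0.18, -0.75 to 1.09). The log2 difference from WT was -3.48 (-6.58 to -1.49) in the single Hoxa-null and -3.54 (-6.64 to -1.55) in the Hoxa-null compound vas deferens. The peptide that Ntsr1 binds comes from Nts, which was at the floor in the WT and single Hoxd-null vas deferens and had at most 3 reads, in the epididymis, in any male library.

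**Figure D2:**
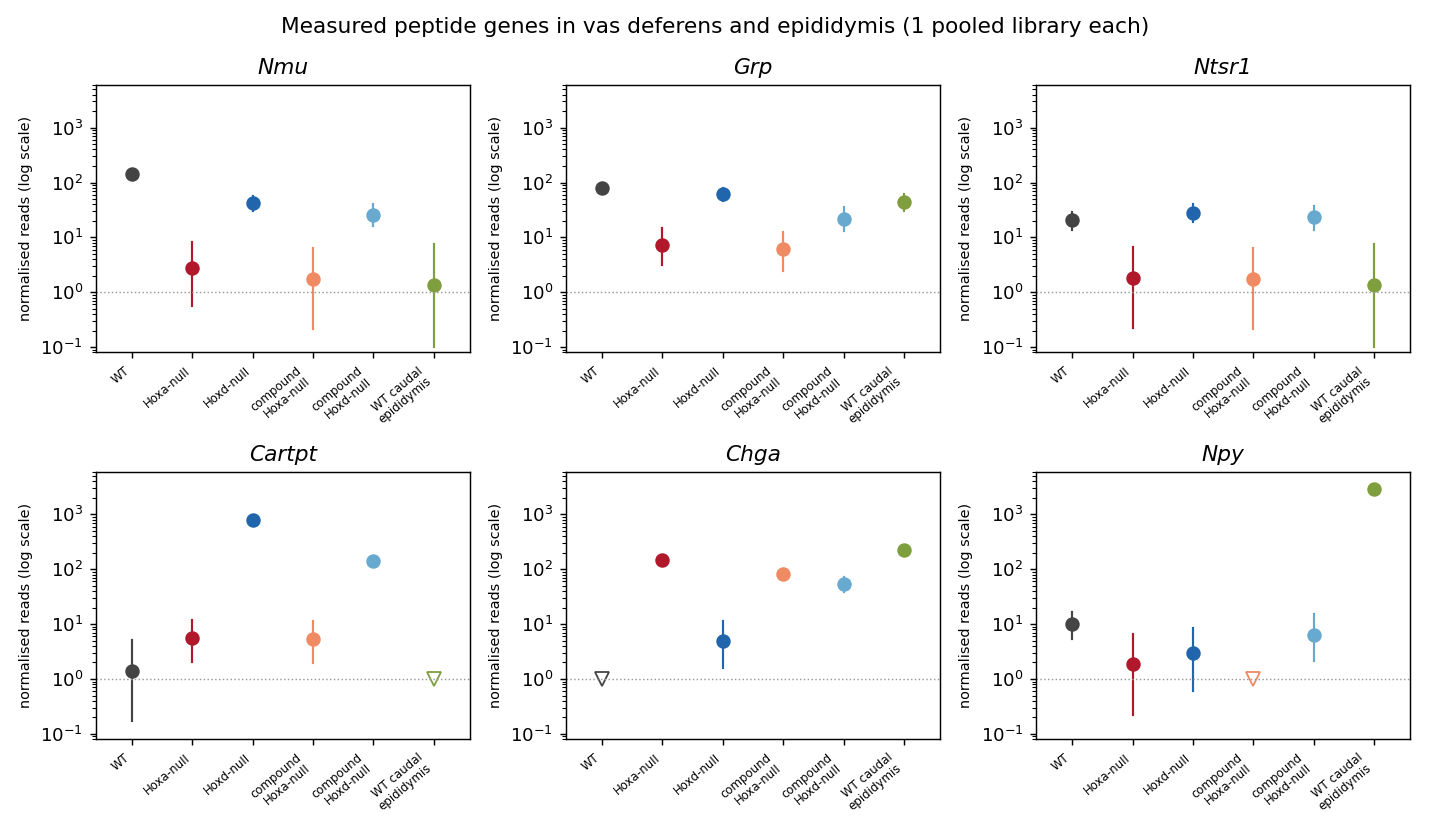
Level of the 6 measured members in the vas deferens of 5 genotypes and in the WT caudal epididymis, in normalised reads on a log axis, with 1 pooled library per point, vertical lines for the 95% Poisson interval of the read number and open triangles for libraries at the floor of 1 normalised read (dotted line). Nmu, Grp and Ntsr1 are low in the 2 Hoxa-null vasa, Cartpt is high in the 2 Hoxd-null vasa at 778 and 140 normalised reads, and Npy reaches 2962 in the epididymis alone.

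Among the vasa, Cartpt was high where both copies of the Hoxd genes were mutant. It encodes the CART peptide, a neuropeptide best known from feeding circuits and from autonomic ganglia. Cartpt had 2 reads in the WT, 6 in the single Hoxa-null, 795.16 in the single Hoxd-null, 6 in the Hoxa-null compound and 108 in the Hoxd-null compound vas deferens, and the epididymis was at the floor. The 2 Hoxd-null vasa stood apart from every other male library by a gap of 4.67 log2 units. The log2 difference from WT was 9.11 (7.25 to 12.16) in the single Hoxd-null and 6.63 (4.74 to 9.69) in the Hoxd-null compound vas deferens. The Hoxd-null compound lay 5.58-fold below the single Hoxd-null (-2.48, -2.78 to -2.19), in a comparison of libraries from different runs. In the 2 Hoxa-null vasa the differences of 1.96 (-0.51 to 5.31) and 1.90 (-0.57 to 5.25) had counting intervals that included 0.

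Chga had almost no reads in the WT vas deferens and many in 3 of the 4 mutants. The WT vas deferens was at the floor, and the reads were 159.92 in the single Hoxa-null, 5 in the single Hoxd-null, 92 in the Hoxa-null compound and 42 in the Hoxd-null compound vas deferens, and 164 in the epididymis. With 3 reads allowed for WT and the other library's reads taken as they are, Chga exceeded WT by at least 69.7-fold in the single Hoxa-null, 38.5-fold in the Hoxa-null compound and 25.7-fold in the Hoxd-null compound vas deferens, and at least 105-fold higher in the epididymis. The 5 reads of the single Hoxd-null are too few to be told from the 3 allowed for WT. The Hoxd-null compound was 11.1-fold above the single Hoxd-null (3.47, 2.14 to 5.17), again across runs, and the Hoxa-null compound was 1.81-fold below the single Hoxa-null (-0.85, -1.24 to -0.48). The caudal epididymis had the highest Chga level of the male set, at 221 normalised reads, ahead of the single Hoxa-null vas deferens at 147. Chgb was likewise at the floor in WT and highest in the epididymis by normalised reads, but at far lower levels, with 4, 2, 8.78 and 4 reads in the 4 mutant vasa and 6 in the epididymis.

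Npy was low in all vasa and very high in the epididymis. It had 14 reads in the WT, 2 in the single Hoxa-null, 3 in the single Hoxd-null and 5 in the Hoxd-null compound vas deferens, the Hoxa-null compound was at the floor, and the epididymis had 2192.84. WT was the highest vas deferens, and the counting interval of the difference excluded 0 for the single Hoxa-null (-2.43, -5.60 to -0.30) while it included 0 for the single Hoxd-null (-1.75, -4.19 to 0.09) and the Hoxd-null compound (-0.61, -2.44 to 0.95). Against 3 reads for the floor library, and with the 14 reads of WT taken as they are, the Hoxa-null compound was at least 3.72-fold below WT. Tac2, which led the uterus, had 2 reads in the Hoxa-null compound vas deferens and 1 in the epididymis and was at the floor in the other 4 male libraries. Vip, which encodes vasoactive intestinal peptide of parasympathetic nerves, was above the floor in 1 of the 12 libraries, the single Hoxd-null vas deferens, with 2 reads.

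Against all 16795 measured male genes, 4 of the 6 measured members were at least 2-fold lower than WT in the single Hoxa-null (8.48% of all measured genes) and in the Hoxa-null compound vas deferens (8.41%), namely Grp, Nmu, Npy and Ntsr1, of which Npy reached the minimum through the epididymis. The other 2, Cartpt and Chga, were at least 2-fold higher in both (10.7% and 13.8% of measured genes). For Cartpt these calls rest on 6 reads in each against 2 in WT, with counting intervals that included 0. In the single Hoxd-null vas deferens 2 were lower, Nmu and Npy (4.83%), and 2 higher, Cartpt and Chga (3.33%). Chga had 5 reads there, too few to be told from WT. In the Hoxd-null compound 2 were lower, Grp and Nmu (5.34%), and 2 higher, Cartpt and Chga (7.61%). In all, 3 members were lower in both Hoxa-null vasa than in all others (2.3% of measured genes) and 1, Cartpt, was higher in both Hoxd-null vasa (0.143%). Nmu was higher in WT than in all 4 mutants (0.816%), and Cartpt and Chga were lower in WT than in all 4 (1.03%). The last count rests on 6 reads of Cartpt in each Hoxa-null vas deferens and 5 of Chga in the single Hoxd-null. Cartpt reached the minimum in the 2 Hoxd-null vasa alone, and Nmu and Ntsr1 only in vasa with a WT copy of the Hoxa genes. As in the uterus, these contrasts chose the members, so the shares are given as background alone. No measured member was 2-fold apart between the Hoxa-null compound and the single Hoxa-null vas deferens (9.4% of measured genes in either direction), and 4 of 6 were between the Hoxd-null compound and the single Hoxd-null (11.8%). Of these 4, Npy and Chga were higher and Cartpt and Grp lower in the compound, in libraries from different runs. The counting interval of Npy included 0. In the uterus the same comparisons gave 1 of 4, Npy, with the single Hoxa-null at the floor (11.5%), and 3 of 4 (9.67%). Those 3 were Npy, higher in the Hoxd-null compound, and Grp and Chga, lower there. Npy and Chga had counting intervals that included 0 and reached the minimum through the oviduct alone.

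**Figure D3:**
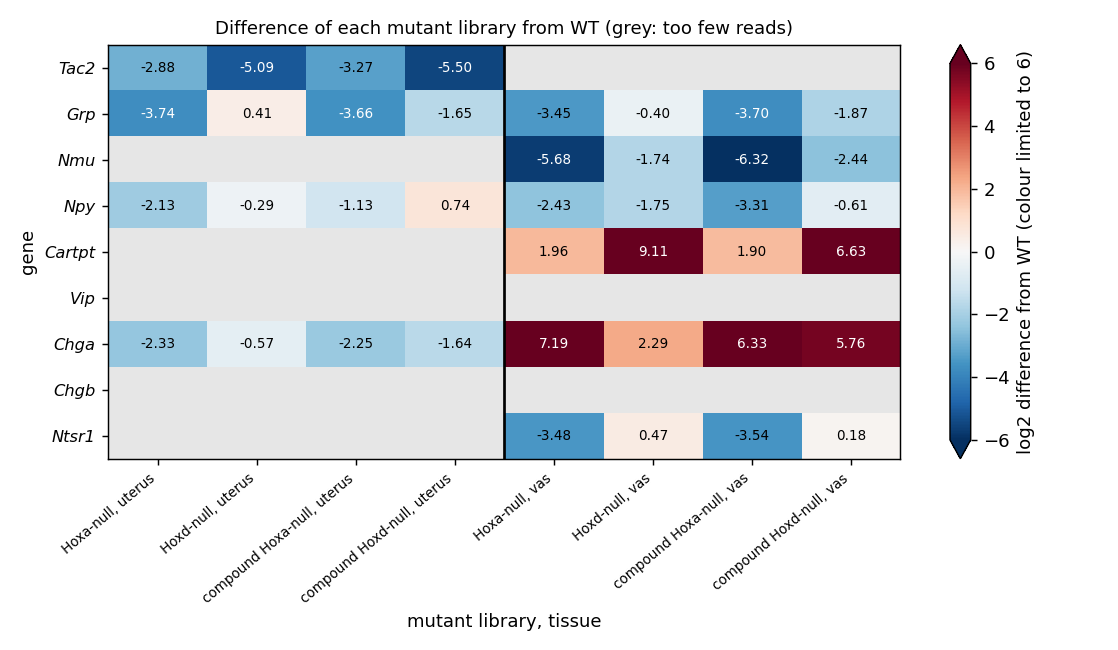
Log2 difference of each mutant library from the WT library of its tissue for the 9 genes, as numbers and as colour limited to 6 log2 units in either direction, with uterus on the left and vas deferens on the right and unmeasured genes in grey. Grp is lower in the single Hoxa-null and Hoxa-null compound libraries of both tissues, while Chga is lower there in the uterus (-2.33 and -2.25) and higher in the vas deferens (7.19 and 6.33, with the WT library set at the floor of 1 normalised read). Chga had at most 13 reads in a uterus and reached the minimum in the female set through the oviduct alone.

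The WT oviduct and epididymis show where the same genes stood in the adjoining segment. At a 4-fold threshold, the oviduct had 1 of 4 measured members higher than the uterus, Npy (8.83% of measured genes), and 2 lower, Tac2 and Grp (3.58%). Npy was 7.23-fold higher in the oviduct (log2 difference 2.85, 1.39 to 4.82), Tac2 was at -5.51 (-6.65 to -4.57) and Grp at -3.82 (-6.95 to -1.80). The epididymis had 2 of 6 higher than the vas deferens, Npy and Chga (9.35%), and 2 lower, Nmu and Ntsr1 (4.03%). Npy was at 8.22 (7.48 to 9.10), a difference of 298-fold, Nmu was at -6.71 (-12.01 to -4.20) and Ntsr1 at -3.93 (-9.27 to -1.33). These comparisons share the WT uterus or WT vas deferens with the mutant comparisons, so the values are set side by side and not related to each other. Npy was measured through the oviduct and the epididymis alone, so the minimum itself favoured its being higher there. In the oviduct library, 9 of 10 measured ovary markers, among them Cyp11a1, were at least 4-fold higher than in the WT uterus, with a summed level of 9568 normalised reads over the 7 markers with readable levels against 71.6 to 459 in the uteri. The part of ovarian RNA in the oviduct's Npy, Chga and Cartpt was not tested.

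Receptors of the members differed from WT in both directions. Of 22 receptor and ligand genes listed for the members, 21 were in the files, and 9 of them were measured in females and 13 in males, the latter including Ntsr1. In the uterus 2 were higher by at least 2-fold and 2 lower in the single Hoxa-null, none higher and 2 lower in the single Hoxd-null, 3 higher and 2 lower in the Hoxa-null compound, and 1 higher and 1 lower in the Hoxd-null compound. Over all measured genes, 5.98% and 7.26%, 6.18% and 5.78%, 8.55% and 6.81%, and 7.96% and 6.3% were higher and lower in the same libraries. The medians of the 9 were -0.30, -0.29, 0.56 and -0.24 in the order single Hoxa-null, single Hoxd-null, Hoxa-null compound and Hoxd-null compound. Vipr2, a receptor of vasoactive intestinal peptide, was below WT in all 4 mutant uteri (-3.22, -1.30, -1.39 and -2.10 in the order used above), while Vip itself had the same value in every female library. Tacr1, the substance P receptor, was at 1.65 in the single Hoxa-null uterus and was also more than 2-fold higher in the compound one. Adcyap1r1, the PACAP receptor, was at 2.63 and 2.73 in the same libraries. Npy2r was at -3.34 in the single Hoxa-null and 3.28 in the Hoxa-null compound uterus, opposite in 2 libraries that share the Hoxa genotype. Tacr3, the receptor of neurokinin B, and Grpr were not measured in the female set, and Grpr had at most 5 reads.

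In the vas deferens, 3 of the 13 were higher by at least 2-fold and 4 lower in the single Hoxa-null, 2 higher and 5 lower in the Hoxa-null compound, none in either direction in the single Hoxd-null, and 2 higher and none lower in the Hoxd-null compound. Over all measured genes, 10.7% were higher and 8.48% lower in the single Hoxa-null, 13.8% and 8.41% in the Hoxa-null compound, 3.33% and 4.83% in the single Hoxd-null, and 7.61% and 5.34% in the Hoxd-null compound. These shares and those for the uterus are also the background of the lists that come after. The medians were -0.01 in the single Hoxa-null, 0.23 in the Hoxa-null compound, 0.13 in the single Hoxd-null and 0.18 in the Hoxd-null compound. Nmur2, a receptor of neuromedin U, stayed within 1 log2 unit of WT in all 4 mutants (0.20, -0.44, 0.71 and 0.58 in the single Hoxa-null, single Hoxd-null, Hoxa-null compound and Hoxd-null compound), where the differences of Nmu itself ran from -1.74 to -6.32. Npy1r was at -2.02 and -1.61 and Tacr2 at -1.42 and -1.58 in the single Hoxa-null and Hoxa-null compound, and both stayed within 1 log2 unit of WT in the 2 Hoxd-null vasa. Grpr had 6 reads in the single Hoxa-null vas deferens and at most 1 in the other 5 male libraries. Nmur1, the second receptor of neuromedin U, had the same value in all male libraries.

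**Figure D4:**
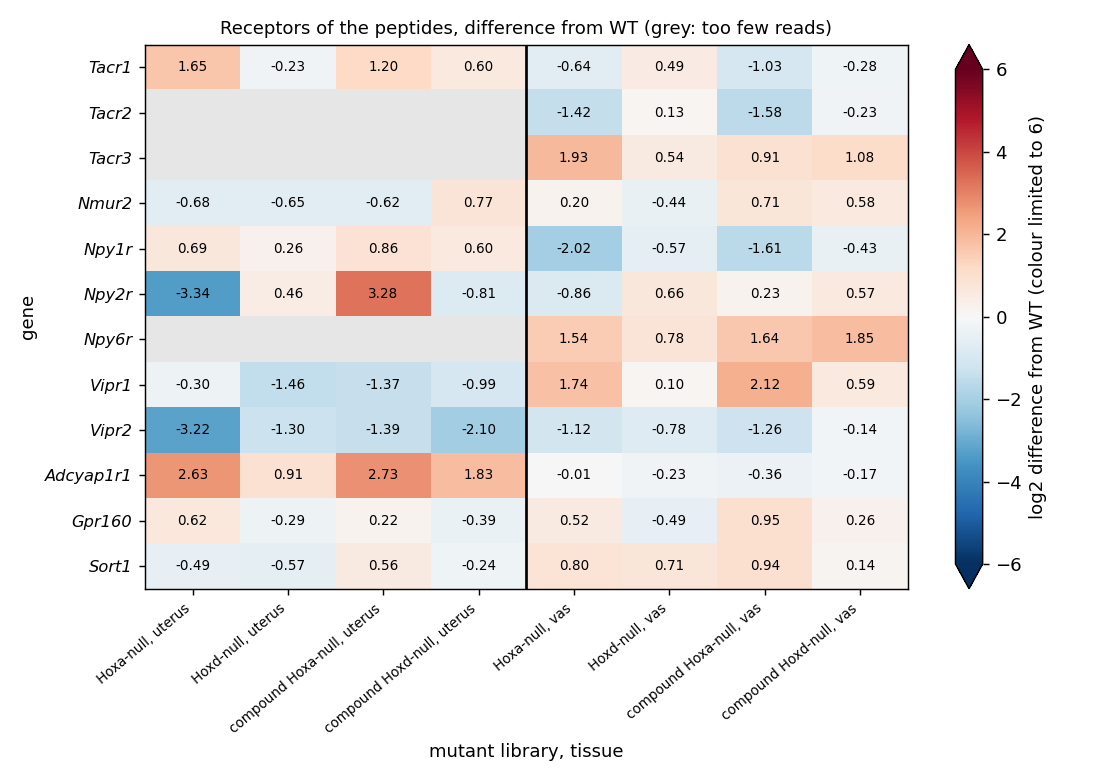
Log2 difference from WT of 12 receptors of the peptides in the 4 mutant uteri (left) and 4 mutant vasa (right), as numbers and as colour limited to 6 log2 units in either direction, with unmeasured genes in grey. Vipr2 is lower in all 4 mutant uteri, and Npy1r and Tacr2 are lower in the 2 Hoxa-null vasa.

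Among the other genes of the peptide pathway, differences ran in both directions. Of 59 listed precursor genes, 57 were in the files and 21 were measured in the female set, and 4, 3, 3 and 1 were higher by at least 2-fold and 7, 4, 12 and 12 lower in the single Hoxa-null, single Hoxd-null, Hoxa-null compound and Hoxd-null compound uterus. Their medians were -0.23, 0.39, -1.13 and -1.11, members included. Nppc, the precursor of C-type natriuretic peptide, was at 4.11 in the single Hoxa-null and at -0.77 in the Hoxa-null compound uterus. Calca, which encodes calcitonin gene-related peptide of sensory nerves, was at -3.49 in the Hoxd-null compound uterus. Rln1, a relaxin gene, was at 2.18 in the Hoxa-null compound and at the floor in the Hoxd-null compound uterus, and Npw was at -3.29 in the Hoxa-null compound.

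In the male set 20 precursors were measured, and 5, 3, 5 and 3 were higher by at least 2-fold and 8, 8, 7 and 5 lower in the same order of mutants, with medians of 0.05, -0.44, -0.11 and -0.48. Calcb, which encodes the second form of calcitonin gene-related peptide, was below WT in every mutant vas deferens (-2.85, -1.06, -3.93 and -1.84). Ppy, the precursor of pancreatic polypeptide and a relative of Npy, was above WT in every one (3.04, 1.36, 3.22 and 2.53). Sct, the secretin precursor, was at -3.46 in the Hoxd-null compound, and Iapp, the amylin precursor, was at the floor in WT and had 3 reads in the single Hoxa-null and 11 in the Hoxa-null compound vas deferens.

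The proteins that process and store the peptides included a few genes with wide differences. In the uterus 19 of 22 listed genes were measured, with 4, 2, 2 and 1 higher by at least 2-fold and 3, 2, 4 and 5 lower than WT. Cadps, which primes dense-core vesicles for release, was at -5.21 and -5.72 in the single Hoxa-null and Hoxa-null compound uterus and at -1.46 and -4.04 in the single Hoxd-null and Hoxd-null compound, and Syt4, a vesicle protein of the synaptotagmin family, was at -4.30 and -3.85 in the 2 compound mutants. In the vas deferens 20 were measured, with 3, 1, 4 and 4 higher and 4, 2, 4 and 1 lower. Ptprn, a membrane protein of dense-core vesicles, was -4.79, -3.49, -4.21 and -3.65 from WT in the 4 mutant vasa, and its relative Ptprn2 was at 2.48 and 2.74 in the single Hoxa-null and Hoxa-null compound at -0.11 in the single Hoxd-null and at 1.87 in the Hoxd-null compound. Rab27b, a small GTPase of secretory vesicles, was at -2.80 and -2.50 in the 2 Hoxa-null vasa and at 0.51 and 0.38 in the single Hoxd-null and Hoxd-null compound. Of the 5 measured genes on the granin list, Chga was the 1 higher by at least 2-fold in the 2 Hoxa-null vasa, and 2 were lower. Scg3 was at -1.87 and -1.61 there and at -0.45 and 0.83 in the 2 Hoxd-null vasa, and Pcsk1n was at -1.73, -2.99, -1.33 and -0.94. Scg5 was at 0.32 and 0.24 and Gnas at 0.54 and 0.32 in the 2 Hoxa-null vasa.

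Most markers of glia were lower in both Hoxa-null vasa. Of 10 measured Schwann cell and glia markers, 8 were at least 2-fold lower in the single Hoxa-null and 7 in the Hoxa-null compound vas deferens, with medians of -1.90 and -1.34, against 2 in the single Hoxd-null and none in the Hoxd-null compound. Their summed level over the 7 markers with readable levels was 556 normalised reads in WT, 296 and 476 in the 2 Hoxd-null vasa, and 126 and 196 in the 2 Hoxa-null vasa. Sox10, a defining factor of these cells, was at -2.48 and -2.43 in the 2 Hoxa-null vasa. Of 18 measured markers of autonomic neurons, 5 were higher and 7 lower in the single Hoxa-null and 6 and 6 in the Hoxa-null compound vas deferens, with medians of -0.17 and -0.54. Dbh, the enzyme that makes noradrenaline, was at 4.88 and 5.51 in the single Hoxa-null and Hoxa-null compound, at 1.06 in the single Hoxd-null and at 3.68 in the Hoxd-null compound vas deferens. Those values rest on 2 reads of Dbh in WT, and the single Hoxd-null had 3. Among the lower markers, Slc6a2 was at -1.32 and -1.65 and Gap43 at -2.31 and -1.27 in the single Hoxa-null and Hoxa-null compound. Among the higher ones beside Dbh, Th was at 1.48 and 1.74 and Nefh at 2.80 and 2.32 in the same libraries. Tubb3 was at 1.72 and 1.33 and Ret at 1.06 and 2.06 there. The part of nerve and glial RNA in the values of Nmu, Grp, Ntsr1, Npy and Chga was not tested.

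Markers of other tissues also differed from WT, and whether RNA of those tissues was present was not tested. The seminal vesicle and prostate list had 6 measured genes with medians of 2.93 and 2.57 in the single Hoxa-null and Hoxa-null compound vas deferens and -0.72 and -0.62 in the single Hoxd-null and Hoxd-null compound. The 8 measured smooth muscle markers had medians of -0.92 in the single Hoxa-null and -1.04 in the Hoxa-null compound vas deferens. Their medians were 0.22 in the single Hoxd-null and -0.58 in the Hoxd-null compound. At least 2-fold lower were 3 in the single Hoxa-null, 4 in the Hoxa-null compound, 0 in the single Hoxd-null and 2 in the Hoxd-null compound. Of 5 measured neuroendocrine markers none was at least 2-fold higher in any mutant vas deferens. In the order used above, 2, 1, 1 and 0 were lower. Chga was called 2-fold higher in all 4, but its 5 reads in the single Hoxd-null were too few to be told from WT. The epididymis list, measured beside Chga because that gene was highest in the epididymis, had medians of 1.26, 0.19, 0.45 and 0.69 in the 4 mutant vasa, and its part in the Chga values was not tested. In the uterus, 17 markers of autonomic neurons were measured, and 3, 2, 2 and 1 were 2-fold higher and 8, 1, 5 and 4 lower in the order used above. Slc6a2, the noradrenaline transporter, was at -2.88, -0.21, -5.30 and -3.86. The 9 measured glia markers of the uterus had medians of 0.18, -0.22, 0.93 and 0.83, and markers of stratified squamous epithelium had medians of 6.24 in the single Hoxa-null and 4.17 in the Hoxa-null compound uterus, the 2 uteri in which Grp was lowest, and of 1.89 in the Hoxd-null compound and 0.02 in the single Hoxd-null. Their part in the uterine values of Grp, Tac2, Chga and Npy was not tested.

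The genes whose pattern over 6 libraries was nearest to each member were found by the root-mean-square difference of the log2 values. For Tac2 in the female set the nearest were Cpamd8, Agtr1b and Slc17a4, at 0.76, 0.81 and 0.89 log2 units over 14223 genes. For Grp they were Robo2 at 0.46, Tmprss6 at 0.55 and Angptl7 at 0.55 in the female set, and Blk at 0.36, Fam5b at 0.40 and Cacna1i at 0.45 in the male set. For Nmu they were Cdkl1, Mdga2 and Ephx4 at 0.68, 0.69 and 0.71, and for Ntsr1 they were Ankrd35, Lsamp and Slc25a43 at 0.31, 0.38 and 0.40. Cartpt had no near match: its closest genes, Cyp4a32, Kcnj1 and Glycam1, were 2.20, 2.35 and 2.36 log2 units away. Chga in the male set was nearest to Rnase9, Pipox and Gpx5, at 0.82, 0.99 and 1.02, and in the female set to Nnat, Igsf11 and Gna14, at 0.28, 0.38 and 0.40. Npy in the male set was nearest to Oxct2b, Fscn3 and Abcc8, at 1.24, 1.51 and 1.54.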

How the data were processed

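Libraries were prepared from total RNA with Illumina TruSeq chemistry after column purification (Qiagen RNeasy Mini), per the labels' protocols. TopHat and the mm9 build are named in the submitters' processing notes. How reads were counted, on which annotation and strand, and how they were scaled is not given in the sources used here. The values the authors deposited are on a log2 scale, and tested on the files each gene's median over the 6 libraries of a sex is 0. Total read numbers are not known, so depth is relative.

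Members and gene lists were chosen with earlier results of these data known, and they support no independent claim. Python 3.11.15, pandas 2.3.3, numpy 2.4.6 and scipy 1.17.1 were used. Each library was first shifted, by no more than 0.00777 log2 units, to undo a small offset. Read numbers were recovered from the spacing of low values, in parts of 1/50 read, taking numbers within 0.002 of a whole read as whole; where no library is at the floor they are the smallest numbers that give the values, and all of a gene's numbers could be larger by a common factor. Floor libraries were allowed 3 reads in folds written as "at least". A gene was measured with at least 20 normalised reads in its highest library or a level that could not be read. Mutants were set against WT and against each other at 2-fold, and segments at 4-fold. Because groups hold 1 library, no test was made. The named genes were the members, their receptors, further genes of each list and the 3 nearest in pattern. The further genes were meant to be at most 4 per list with the largest difference from WT. In the autonomic neuron list of the vas deferens this rule was not kept. Recovery was tested on simulated data. Alternatives were the unshifted values, log2(normalised reads + 1), minimums of 5, 50 and none, a doubled threshold, another reference, mutants in the lane of WT, leaving out each library and, chosen after seeing the data, the minimum required in the tissue compared.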

Additional observations from a re-analysis of the deposited data

Results flagged for a closer look

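Chga differed from WT in opposite directions in the 2 tissues under the same genotypes. In the uterus its log2 difference from WT was -2.33 (-4.78 to -0.47) in the single Hoxa-null and -2.25 (-4.70 to -0.38) in the Hoxa-null compound, from 13 reads in WT and 3 in each mutant. Chga reached the minimum for a measured gene in no uterus. In the vas deferens it was 7.19 and 6.33, from a WT library at the floor and mutants with 159.92 and 92 reads. Those values set WT at 1 normalised read, and with 3 reads allowed for WT they stand for at least 69.7-fold and 38.5-fold. The difference between tissues was not tested, since each group has 1 library.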

How the results depend on the processing

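No paired analysis was possible because each group has 1 library. With the mean of the libraries that keep a WT copy of the mutated cluster in place of WT, 14 of 40 differences changed sign, 10 of them at least 2-fold against WT. Of these 10, those in the uterus were Tac2 in the single (0.65) and Hoxa-null compound (0.26) and Grp in the Hoxd-null compound (0.81). In the vas deferens they were Cartpt in the single (-3.29) and Hoxa-null compound (-3.34), Nmu (2.26), Npy (0.17) and Chga (-2.22) in the single Hoxd-null, and Grp (0.52) and Nmu (1.56) in the Hoxd-null compound. That reference includes mutants of the other cluster, among them a compound mutant that also carries 1 mutant copy of the same cluster. With log2(normalised reads + 1), 9 of 40 moved and none changed sign. Counts of member differences also moved. With a minimum of 50 normalised reads, uterine differences from WT went from 12 to 4, those between compound and single mutants from 8 to 4, those of the oviduct from 3 to 1, and the separation of the 2 Hoxa-null uteri from 1 to 0. With a doubled threshold, the count between compound and single mutants was 3, that of WT against all 4 mutant vasa went from 3 to 1, that of the oviduct was 1, and the separation of the 2 Hoxd-null uteri went from 1 to 0. Calls over the pathway lists went from 219 to 338 with no minimum and to 76 with a doubled threshold. Leaving out 1 library gave 1 to 2 members for the 2 Hoxa-null uteri, where leaving out any library but the single Hoxa-null gave 2. It gave 1 to 2 for the 2 Hoxd-null uteri and 1 to 4 for the 2 Hoxd-null vasa, with the higher count reached without WT in both. The single Hoxa-null uterus is the 1 mutant in the lane of WT, and its comparison gives 4 of the 12 differences, fewer because 3 mutants are left out. With the minimum required in the tissue compared, chosen after seeing the data, the 12 became 7 and the 8 between compound and single mutants became 4, while the other counts between genotypes stayed within 1.5 times. Npy and Chga rest on at most 13 reads in any uterus.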
